A study of Drosophila melanogaster with 23 samples.

Results

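The accessible regions around the Drosophila segment polarity genes wingless (wg) and hedgehog (hh) were compared along the head-to-tail axis of the blastoderm embryo. Peaks of 22 ATAC-seq libraries were merged wherever they overlapped by at least 1 bp, and the regions whose centre fell between 7280000 and 7330000 on chromosome 2L (wg) or between 18930000 and 18980000 on chromosome 3R (hh) were kept, on genome build dm3. This gave 38 of the 25311 merged regions of the genome, 23 around wg and 15 around hh. They are numbered W1 to W23 and H1 to H15 in the order of their position.

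ATAC-seq cuts and tags open chromatin with the Tn5 transposase, so a peak marks a stretch where many cuts were read. Tagged nuclei were assayed from 7 domains in 14 libraries, and whole embryos without the pull-down in 8 libraries. Each peak carries its fold over the genomic DNA reference and the place of its summit, its highest point. Embryos were at stage 5, the blastoderm while its cell membranes form, and were frozen 190 min after egg collection began.

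All flies carried, in a wild-type background, a transgene in which a known enhancer of an early gene drives UNC84-3xFLAG, a tag of the nuclear envelope that lets nuclei be pulled down with an antibody to FLAG. The domains, from anterior to posterior by the known positions of these enhancers, were D1 (hb_anterior_Hs34_UNC84-3xFLAG, hunchback anterior), D3 (eve_stripe1_DSCP_UNC84-3xFLAG), D2 (eve_stripe2_DSCP_UNC84-3xFLAG), D4 (D_central_Hs43_UNC84-3xFLAG, Dichaete central), D5 (Kr_central_Hs43_UNC84-3xFLAG, Kruppel central), D6 (eve_stripe5_DSCP_UNC84-3xFLAG) and D7 (gt_posterior_Hs43_UNC84_3xFLAG, giant posterior). The whole-embryo libraries came from the D1, D4, D5 and D7 strains, so they hold tagged and untagged nuclei. Replicates 1 and 2 came from 2 transgenic lines per construct, except that both D3 libraries are labelled with the same line. A tagged domain is as wide as its enhancer is active and need not match 1 future segment.

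Wingless is a secreted Wnt ligand and hedgehog a secreted Hedgehog ligand. In the segmented germ band each is made in a narrow stripe of cells on its side of the parasegment boundary, and each signal helps to keep the other expressed. Their stripes are set by pair-rule transcription factors around the end of the blastoderm stage, so the domains assayed here hold nuclei that will and will not make each ligand. In a bulk library, fewer open nuclei and less opening per nucleus cannot be told apart.

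No dm3 gene annotation was used here, so no region is called a promoter, an exon or an intron, and the loci of the driver genes were not looked up. In the Release 6 plus ISO1 MT annotation, of which only the order of genes was used, wg lies between CG31909 and Wnt6, with Wnt4 and Wnt10 as the next genes out, so its neighbourhood holds several Wnt ligand genes. In the same annotation hh lies between CG31457 and unk.

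The lists held 16830 to 22169 peaks on the main chromosome arms, and read depth is unknown. In the first replicate of the 4 strains that also have whole embryos (8 lists, both kinds of nuclei) each peak had a single entry, and the other 14 lists held peaks with lettered names whose values appear to belong to a late summit. Fold values are therefore the authors' own, they are used to describe and rank peaks within a list, and no level is compared between lists. Library names inside the lists had 3 styles, which split the tagged libraries into sets of 4, 7 and 3, and style is treated as a possible batch.

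Many regions of both genes were open in every domain. Of the 38 regions, 19 were found in all 22 libraries, 10 around wg and 9 around hh, against 42.8% of all merged regions. Another 4 were found in 1 library, W2 in D1 replicate 1, W5 in D7 replicate 2, W22 in the D4 whole embryo of replicate 2 and H7 in D3 replicate 2, against 10.2% of all regions. These 4 were 200 to 219 bp wide with a fold of 1.52 to 1.89. Tagged nuclei showed 37 of the regions, and every one of the 14 tagged libraries showed 19 of those, against 45.1% of all regions seen in tagged nuclei. These shares lay near those of the genome.

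The hh window held fewer and wider regions than the wg window. The median width was 474 bp around wg and 858 bp around hh, against 480 bp for all regions. Regions covered 33.5% of the 50 kb around wg and 37.6% of that around hh. The 23 regions around wg were more than in 89.9% of the 2402 windows of 50 kb that tile the genome, and the 15 around hh more than in 71.3%, where the median window held 9. At the edges, the region before the wg window (7277941 to 7278140) was found in 1 library and the region after it (7333657 to 7334131) in 10, while W1 was found in 19 and W23 in 14. The hh window began in a stretch with no region, from 18881955 to 18942967, and the region after it (18980134 to 18980567) was found in 19 libraries.

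**Figure D1:**
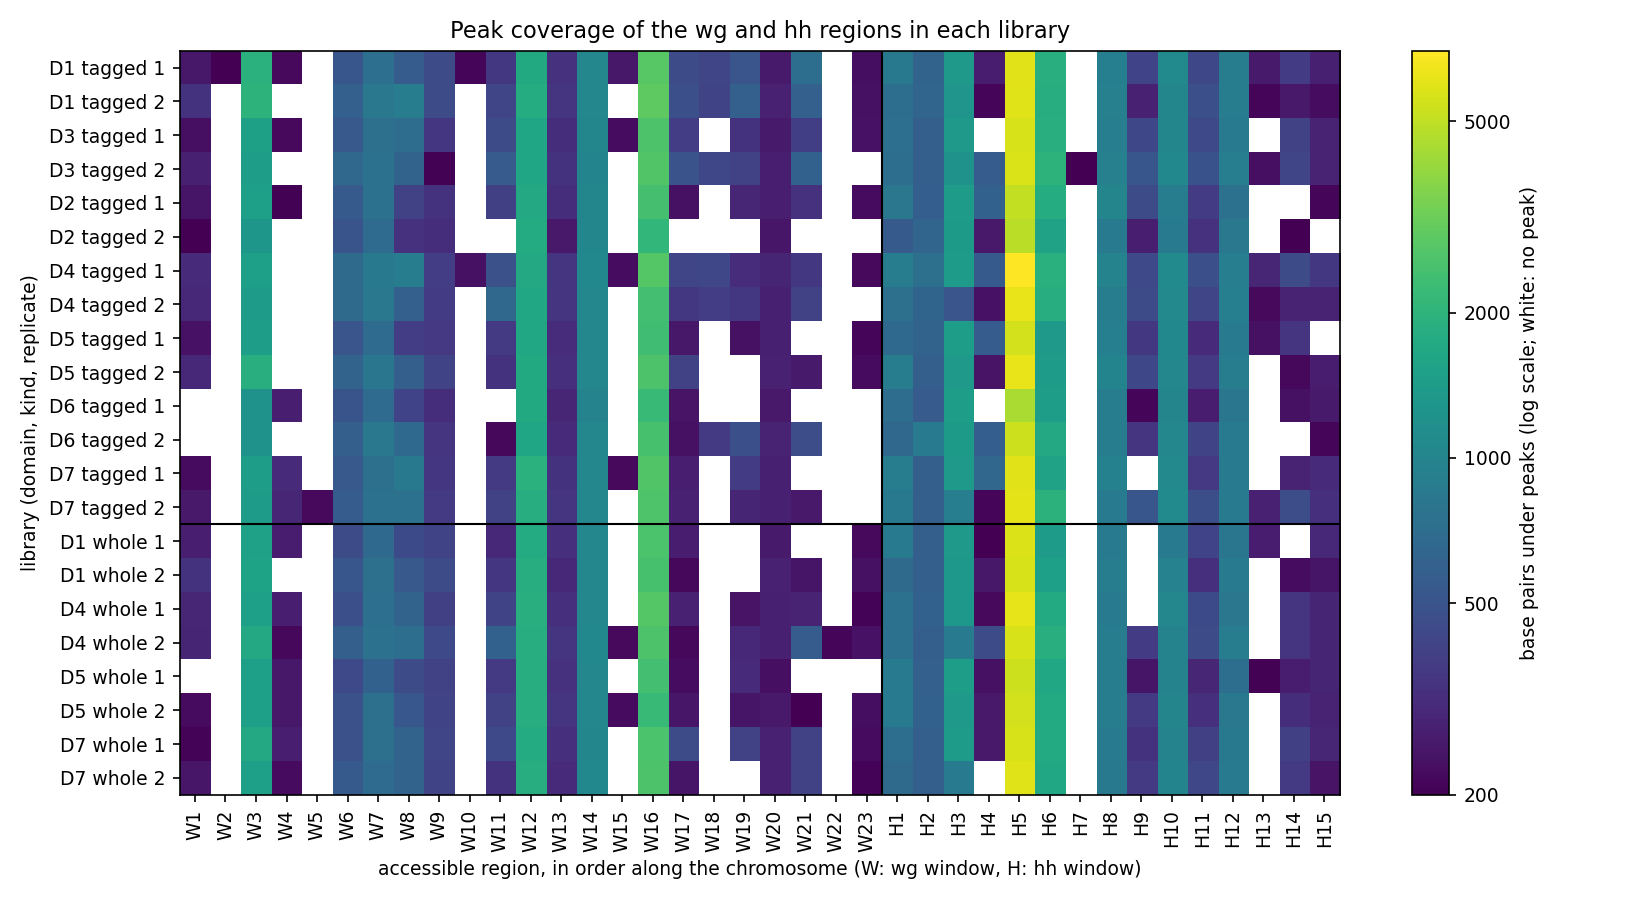
Base pairs under peaks in each region (columns, W1 to W23 and H1 to H15) and library (rows, tagged domains above whole embryos), on a log colour scale, with white where a library had no peak. The 19 regions found in all 22 libraries form unbroken columns, and W18 is filled in 6 tagged libraries and in 0 of 8 whole-embryo libraries.

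Around wg, the 3 regions found everywhere with the highest median fold over the 22 lists were W3, W16 and W7, where 14 of the lists may give a late summit. In the 8 lists without lettered peaks the order by median fold was W14, W3, W12, W16 and W7. W3 (2L, 7289439 to 7291456, 2018 bp) had a fold of 12.9 to 17.4 in the 8 lists without lettered peaks and ranked above at least 94.4% of the peaks there. Peaks covered 1937 and 1995 bp of it in D1, 1515 and 1477 bp in D3, 1482 and 1321 bp in D2, 1489 and 1412 bp in D4, 1476 and 1876 bp in D5, 1234 and 1230 bp in D6, and 1443 and 1431 bp in D7, against a lowest of 1479, a median of 1514.5 and a highest of 1720 bp in whole embryos. Both D1 libraries and D5 replicate 2 lay above all 8 whole-embryo libraries, and both D6 libraries were the lowest of all 22. In D1 replicate 1 the cover came from a peak of 1627 bp and a separate peak of 310 bp with a fold of 1.38. The whole embryos of D4 replicate 2 and D7 replicate 1 also had such a separate peak, of 233 and 204 bp.

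W16 (2L, 7309649 to 7312724) was the widest wg region at 3076 bp, wider than 97.8% of all regions. Its peaks covered 2790 and 2888 bp in D1, 2597 and 2677 bp in D3, 2441 and 2097 bp in D2, 2744 and 2432 bp in D4, 2355 and 2581 bp in D5, 2210 and 2493 bp in D6, and 2651 and 2622 bp in D7, against 2209 to 2752 bp with a median of 2558.5 bp in whole embryos. The D1 libraries were again above all whole-embryo libraries, and D2 replicate 2 was the one tagged library below them. W7 (2L, 7296171 to 7297062, 892 bp) had its listed summit near 7296715 in all 22 libraries, with a fold of 3.58 to 8.85. It ranked above 69.6% to 90.1% of the peaks in tagged libraries and above 62.6% to 82.6% in whole embryos, ranges that overlap.

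W14 (2L, 7306693 to 7307757, 1065 bp) was added after its values had been seen, because it led the lists without lettered peaks. There it ranked above 99.7% of the peaks in D1, 99.4% in D4, 99.5% in D5 and 98.4% in D7, against 99.2%, 99.0%, 99.3% and 99.5% in the whole embryos of D1, D4, D5 and D7, with a fold of 18.3 to 25.9. This was the highest rank of any wg region in each of the 8 lists. In the 14 lists with lettered peaks its listed summit lay near 7307557 instead of 7307062 and the fold was 1.65 to 2.28. The cover of W14 varied little, 982 to 1057 bp over all 22 libraries.

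Around hh, the 3 regions found everywhere with the highest median fold were H10, H8 and H5, in that order also in the 8 lists without lettered peaks. H10 (3R, 18967354 to 18968454, 1101 bp) had 1 summit position and a fold of 14.4 to 23.2 in the 22 libraries, with a lettered entry in D2 replicate 1 and D6 replicate 2, and ranked above 97.2% to 99.6% of the peaks in tagged libraries and 96.7% to 99.4% in whole embryos. H10 had its summits from 18967711 to 18967862, with a median of 18967731 over all lists and of 18967860 in the 8 lists without lettered peaks. Its peaks covered 1101 and 1028 bp in D1, 1021 and 1046 bp in D3, 897 and 869 bp in D2, 1077 and 1073 bp in D4, 1052 and 1035 bp in D5, 1006 and 1041 bp in D6, and 1073 and 1090 bp in D7, against 870 to 1034 bp in whole embryos. Both D2 libraries were the narrowest of the tagged libraries. A stretch of 172 bp at its right side, 18968260 to 18968431, was covered throughout in both D4 and both D7 libraries and nowhere in either D2 library, and on average in 4.05 of the 8 whole-embryo libraries.

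H8 (3R, 18963713 to 18964717, 1005 bp) had 1 summit position, near 18964333, and an entry without a letter in all 22 lists, with a fold of 5.75 to 9.98. It ranked above 79.5% and 87.4% of the peaks in D1, 89.1% and 83.3% in D3, 93.5% and 90.1% in D2, 88.9% and 93.6% in D4, 90.2% and 94.2% in D5, 89.8% and 92.9% for D6, and 88.2% and 91.0% for D7, against 80.3% to 90.5% in whole embryos. The whole-embryo range overlapped that of the tagged libraries. Because the lists differ in length, these ranks cannot show whether accessibility differed, and this was not tested.

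H5 (3R, 18951183 to 18958526) was the widest hh region at 7344 bp, wider than 99.8% of all regions, and held 4 to 8 peaks per library. Its peaks covered 5983 and 5874 bp in D1, 5649 and 5690 bp in D3, 5080 and 4813 bp in D2, 6959 and 6208 bp in D4, 5511 and 6182 bp in D5, 4456 and 5315 bp in D6, and 5949 and 6089 bp in D7, against 5362 to 6158 bp with a median of 5667 bp in whole embryos. The D4 libraries and D5 replicate 2 were above all whole-embryo libraries, and the D2 and D6 libraries were below them all.

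The other regions found in all 22 libraries were W6, W8, W9, W12, W13 and W20 around wg and H1, H2, H3, H6, H11 and H12 around hh. Their median fold over the 22 libraries was between 2.27 (W13) and 5.24 (W12) around wg, and between 2.42 (H11) and 6.13 (H1) around hh. W11, W15, W17, W19 and W21 were found in 20, 6, 21, 16 and 16 libraries with a median fold of 1.48 to 2.38, and H4, H9, H14 and H15 in 19, 18, 19 and 20 libraries with a median fold of 1.54 to 2.97. W10 was found in 2 libraries, replicate 1 of D1 and of D4.

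**Figure D2:**
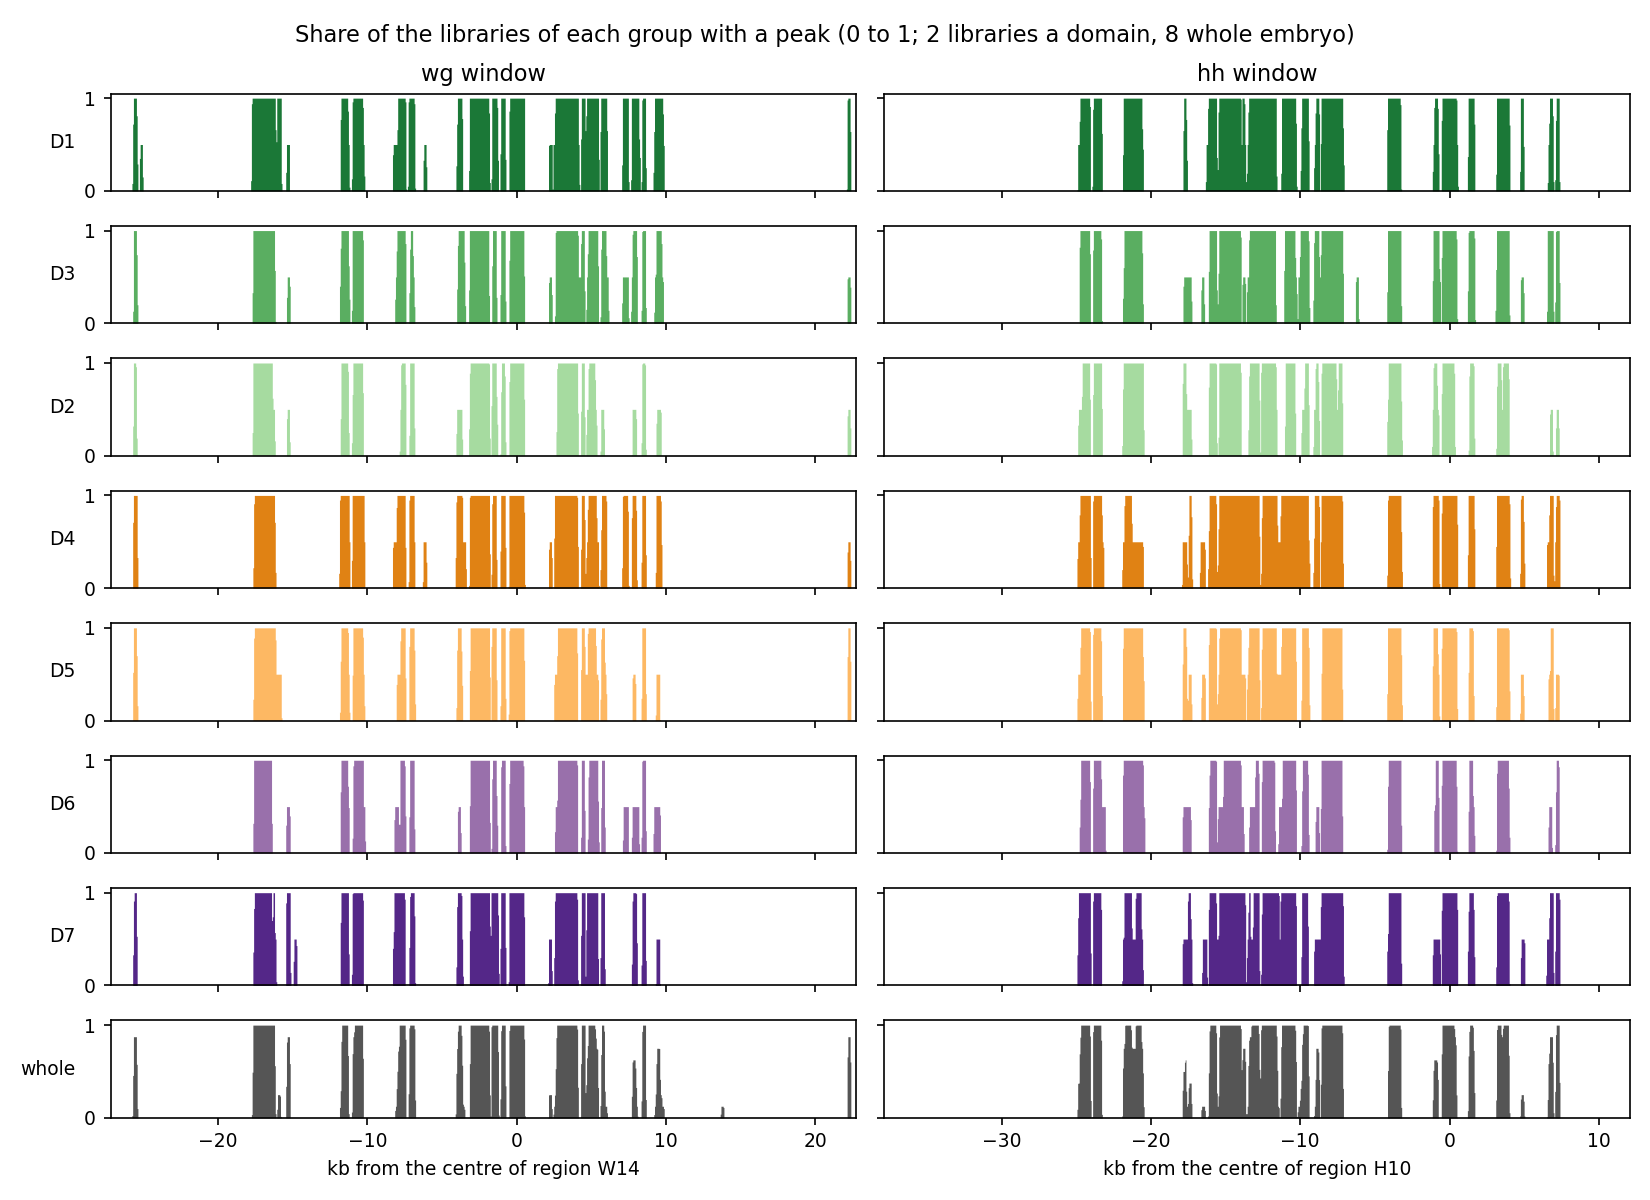
Share of the libraries of each group that had a peak at each place (0 to 1, 2 libraries a domain and 8 whole-embryo libraries), for the wg window left and the hh window right, in kb from the centre of W14 or H10. The blocks common to all groups are the regions found in all 22 libraries, and the block a little over 7 kb right of W14 that is full in D1 and D4 and empty in whole embryos is W18.

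No region around wg or hh was called as present more or less often in one part of the axis, or in tagged nuclei against whole embryos. Fisher's exact test with Benjamini-Hochberg adjustment over all regions tested called 0 members in each of the 4 comparisons, and 0% of all regions in each. Without adjustment, 0 of the 13 members tested (9 around wg and 4 around hh) had a p under 0.05 in the comparison of anterior domains (D1, D3, D2, 6 libraries) with the others, against 5.78% of the 9284 regions tested. The same was true of posterior domains (D6 and D7, 4 libraries) against the others, 0 of 13 against 3.76%, and of central domains (D4 and D5, 4 libraries) against the others, 0 of 13 against 5.47%. For tagged nuclei against whole embryos of the 4 constructs that have both, 8 libraries each, it was 0 of 9 against 3.01% of 9055. The smallest p these designs allow is 0.000333 for 6 against 8 libraries, 0.000999 for 4 against 10 and 0.000155 for 8 against 8. The exact test stratified by naming style, by strain or by replicate number also called 0 members in each comparison it was run for. Without adjustment, the strata by style and by replicate number each gave a p under 0.05 for 1 member in the posterior comparison, W23, and for 1 in the central comparison, W4. The share of all regions with such a p was not taken for the stratified test, so these members cannot be set against the genome.

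Regions that were present in both libraries of one domain and in neither of another numbered 5 of the 37 found in tagged nuclei, W1, W4, W18 and W23 around wg and H13 around hh, against 22.1% of all such regions. Each of the 5 was at most 431 bp wide, and the highest fold among them was 3.48. Leaving out 1 library moved this number by over 1.5 times in 4 cases, to 8 without D1 replicate 2, 10 without D2 replicate 1, 9 without D6 replicate 2 and 8 without D7 replicate 2. A domain left with 1 library is judged by that library alone, so the number can then only stay or rise. The share of all regions was not taken in these cases.

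W1 (2L, 7281490 to 7281828, 339 bp) was missing from both D6 libraries and found in the other 12 tagged libraries, with a fold of 2.00 to 3.48, and in 7 of 8 whole-embryo libraries. It was thus found in 2 of 4 posterior and 10 of 10 other tagged libraries (Fisher's exact test, p = 0.0659, adjusted p = 0.802). Within styles it was found in 1 of 1 posterior against 3 of 3 other libraries, 1 of 2 against 5 of 5, and 0 of 1 against 2 of 2.

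W23 (2L, 7329348 to 7329589, 242 bp), at the other end of the wg window, was found in 0 of 4 posterior and 7 of 10 other tagged libraries, both of D1 and D5 and 1 each of D3, D2 and D4 (Fisher's exact test, p = 0.0699, adjusted p = 0.802). The exact test stratified by naming style gave p = 0.0357 (adjusted p = 0.933) and by replicate number p = 0.0454 (adjusted p = 0.832). Without D2, D3 or D4 replicate 2, 1 at a time, Fisher's exact test gave p = 0.0210 (adjusted p = 0.600, 0.587 and 0.626). Within styles it was found in 0 of 1 against 3 of 3, 0 of 2 against 4 of 5, and 0 of 1 against 0 of 2 libraries. It was found in 7 of 8 whole-embryo libraries, with a fold of 1.89 to 2.42 wherever it was listed. The D6 lists held 16830 and 17898 peaks and the D7 lists 18529 and 17970, against 17412 to 22169 in the other tagged libraries. With every list shortened to 16830 peaks by -log10 q the unadjusted p of the exact test stayed at 0.0659 for W1 and 0.0699 for W23. With lists shortened by width it was 0.58 for W1, and W23 gave no value.

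W4 (2L, 7291751 to 7292058, 308 bp) was found in 0 of 4 central and 6 of 10 other tagged libraries, both of D7 and replicate 1 of D1, D3, D2 and D6 (Fisher's exact test, p = 0.0849, adjusted p = 0.566). The exact test stratified by naming style gave p = 0.0238 (adjusted p = 0.881) and by replicate number p = 0.0340 (adjusted p = 0.601). In whole embryos it was found in 7 of 8 libraries. Within styles the counts were 0 of 2 against 2 of 2, 0 of 2 against 4 of 5, and none against 0 of 3. The central lists held 19184 to 21284 peaks, against 16830 to 22169 in the other tagged libraries. With every list shortened to 16830 peaks the unadjusted p of the exact test was 0.0849 by -log10 q and 0.505 by width.

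W18 (2L, 7314278 to 7314708, 431 bp) was the 1 member found in both libraries of a domain and in no whole-embryo library, against 1.81% of all regions over the 7 domains. It was found in both D1 libraries, both D4 libraries, D3 replicate 2 and D6 replicate 2. Of all regions, 0.458% were so gained in D1, 0.383% in D3, 0.0948% in D2, 0.818% in D4, 0.328% in D5, 0.0277% for D6 and 0.154% for D7. Its peaks covered 422 and 416 bp in D1, 428 bp in D3 replicate 2, 425 and 382 bp in D4, and 365 bp in D6 replicate 2, and the fold was 1.5 to 1.96. In those lists W18 ranked above 7.14% to 17.3% of the peaks, so it lay in the weak part of each. It was found in 4 of 8 tagged and 0 of 8 whole-embryo libraries of the same strains (Fisher's exact test, p = 0.0769, adjusted p = 1), 2 of 4 against 0 of 4 in each of the styles these libraries had.

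H13 (3R, 18972634 to 18972945, 312 bp) was found in both libraries of D1 and D4, in 1 library each of D3, D5 and D7, and in no library of D2 and D6. In whole embryos it was found in 2 of 8 libraries, and its fold was 1.37 to 1.95. No member was missing from both libraries of a domain while present in all 8 whole-embryo libraries, against 4.67% of all regions over the 7 domains. In single domains this background was 0.336% in D1, 1.81% in D3, 0.81% in D2, 0.494% in D4, 0.474% in D5, 2.42% for D6 and 1.26% for D7. With 2 libraries against 8 the smallest p Fisher's exact test allows is 0.0222, so single domains were not tested.

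Peaks covered more of the wg window in both D1 libraries than in any whole-embryo library. Peaks covered 14190 and 14194 bp of it in D1, 12186 and 12369 bp in D3, 11198 and 8772 bp in D2, 13406 and 12090 bp in D4, 10390 and 11782 bp in D5, 9141 and 11172 bp in D6, and 11910 and 11963 bp in D7, against a lowest of 10368, a median of 11406.5 and a highest of 13171 bp in whole embryos. The D1 libraries and D4 replicate 1 lay above every whole-embryo library, and D2 replicate 2 and D6 replicate 1 lay below. As a share of all base pairs under the peaks of a list, the wg window held 0.0994% and 0.116% in D1 and 0.105% and 0.113% in D3, against 0.0749% to 0.09995% in whole embryos. The other tagged libraries held 0.0743% to 0.0993%. D1 replicate 1 had the longest of all lists, 22169 peaks, and D1 replicate 2 a list of 19117.

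Around hh, peaks covered 15587 and 14875 bp in D1, 14535 and 15846 bp in D3, 14031 and 12561 bp in D2, 17467 and 14716 bp in D4, 14255 and 14866 bp in D5, 12323 and 14267 bp in D6, and 14825 and 15488 bp in D7, against 13505 to 14631 bp with a median of 14196.5 bp in whole embryos. The tagged library covered more of the hh window than the whole embryo of its own strain in 8 of 8 strains, by 212 to 2836 bp. For the wg window this held in 6 of 8 strains. As a share of the base pairs of each list the hh window was higher in tagged nuclei in 7 of 8 strains, while the list itself was longer in tagged nuclei in 3 of 8. The number of strains was counted after the values had been seen, and no test was made on it.

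In number of regions, the tagged libraries of the 4 constructs that have both kinds held 17.0 ± 2.07 wg regions (SD, n = 8) and the whole embryos 16.4 ± 1.69 (SD, n = 8), a difference below either SD. For hh they held 13.5 ± 0.756 regions in tagged nuclei (SD, n = 8) and 12.6 ± 0.744 in whole embryos (SD, n = 8), a difference of 0.875 that is above either SD. These SDs are those of each kind and do not measure the spread of the difference within strains. By strain, tagged nuclei had more hh regions in 5 of 8 and fewer in 2, and more wg regions in 5 of 8 and fewer in 3. No test was made on these numbers. Over all 14 tagged libraries the means were 16.1 ± 2.56 for wg and 13.1 ± 1.07 for hh (SD, n = 14). The lowest count for wg was 11, in D2 replicate 2, and the highest 21, in D1 replicate 1.

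**Figure D3:**
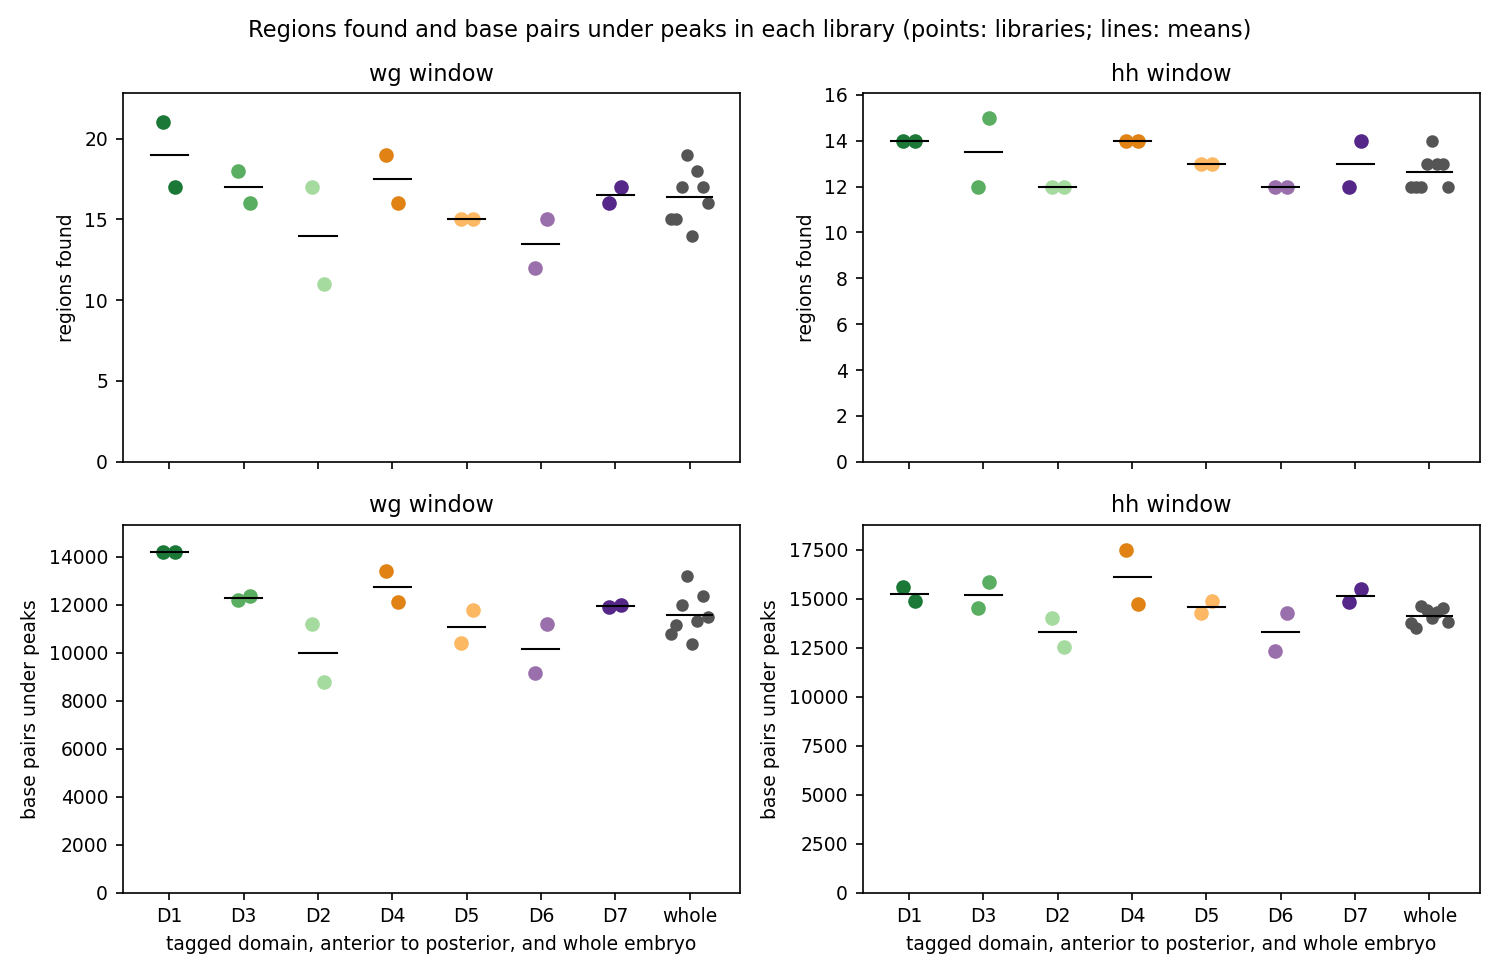
Regions found (top) and base pairs under peaks (bottom) in the wg window (left) and the hh window (right), with a point for each library and a line at the mean of each group. The 2 D1 points for wg base pairs, 14190 and 14194, sit above all 8 whole-embryo points.

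Domains were also compared by base pair, where the differences lay partly in whole regions (W1, W4, W18, W23 and H13) and partly at the edges or inside of regions found in more libraries. Of the base pairs under a peak in any library, 46.1% around wg and 48.7% around hh were covered in all 22, against 40.4% in the genome. Of those under a peak in tagged nuclei, 28.9% around wg and 21.0% around hh were covered in both libraries of one domain and in neither of another, against 23.3% in the genome. The wg share was thus above and the hh share below that of the genome. These base pairs formed 17 stretches of at least 100 bp around wg and 10 around hh.

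Since such base pairs are chosen by their cover in tagged libraries, the cover of each domain is given as a description, beside that of all such base pairs in the genome. Around wg, both libraries covered 74.9% of them in D1 (genome, 41.2%), 35.7% in D3 (20.5%), 8.07% in D2 (26.7%), 47.5% in D4 (57.5%), 21.6% in D5 (47.2%), 3.64% for D6 (10.6%) and 40.6% for D7 (31.5%). Neither library covered 7.30% in D1 (genome, 22.3%), 63.1% in D2 (43.3%) and 58.6% in D6 (60.3%). Around wg, D1 had the highest share covered in both libraries, while in the genome D4 did, and the share of D6 was the lowest in both. D1 replicate 1 had the longest list and D6 replicate 1 the shortest, and the part of list length in these shares was not tested.

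Examples were picked after their values had been seen. One is the right end of W3, 7291147 to 7291450 (304 bp), which was covered in both D1 libraries and in 1 of 2 D5 libraries, in no other tagged library, and on average in 1.44 of 8 whole-embryo libraries. In D1 replicate 1 this end lay under a separate peak with a fold of 1.38. A stretch of 187 bp in W17, 7313079 to 7313265, was covered throughout in D1 and in neither D2 library, and on average in 1.99 of 8 whole-embryo libraries. A stretch of 403 bp in W8, 7298992 to 7299394, was covered throughout in both D7 libraries, in neither D2 library, and on average in 3.39 of 8 whole-embryo libraries.

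Around hh, both libraries covered 48.0% of these base pairs in D1 (genome, 41.2%), 38.9% in D3 (20.5%), 15.2% in D2 (26.7%), 74.5% in D4 (57.5%), 22.4% in D5 (47.2%), 11.1% for D6 (10.6%) and 48.3% for D7 (31.5%). D4 had the highest share and D6 the lowest, as in the genome. The stretch of H5 from 18957583 to 18957991 (409 bp) was covered throughout in both D4 libraries, on average in 1.12 of 2 libraries in D3 and in at most 0.455 of 2 in each other domain, and in 1.97 of 8 whole-embryo libraries. The stretch of H5 from 18955143 to 18955298 (156 bp) was covered throughout in D1 and D3 and nowhere in D6. In H6, the stretch from 18958813 to 18959189 (377 bp) was covered on average in 1.68 of 2 libraries in D1, 1.95 in D3, 1.59 in D2 and 1.91 in D4, in none in D5, in 0.679 in D6 and 1 in D7, and in 4.15 of 8 whole-embryo libraries.

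The strongest summit inside the wide regions was not the same in all lists, and the 3 regions described here were picked after their summits had been seen. Summits of all lists within 60 bp of the next were joined to 1 position, lettered from the left, which gave 10 positions in H5, 5 in W16, 4 in W3, 3 each in W12, H3 and H6, and 1 or 2 in most other regions. Positions seen in a single list were not counted, so W2, W5, W10, W22 and H7 had none. Because a lettered entry may give a late summit, the strongest summit is described in the 8 lists without lettered peaks only, replicate 1 of D1, D4, D5 and D7 of both kinds, so each value comes from 1 library.

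In H5, position H5g (near 18955498) was the strongest in D1 tagged nuclei, with a fold of 8.04. H5b (near 18952126) was the strongest in D4 tagged nuclei, with 7.09, and H5c (near 18953757) in D5 and D7 tagged nuclei, with 6.03 and 6.46. In the whole embryos H5c was the strongest in D1, D4 and D7, and H5b in D5. H5g was listed in all 4 of them with a fold of 5.04 to 5.83, below another summit of the same list each time.

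In W16, W16a (near 7310396) was the strongest summit in D5 and D7 tagged nuclei, with a fold of 7.23 and 6.80, and in all 4 whole embryos. In D1 and D4 tagged nuclei the strongest was W16b (near 7311016), with a fold of 5.89 and 5.71, and W16a was not listed. Each peak of these lists had a single entry and summit. W16a and W16b both lie in a stretch, 7309943 to 7311285, that peaks covered in all 22 libraries, so W16a was not uncovered. In W12, W12a (near 7304552) was the strongest in all 4 tagged libraries. Its fold was 8.49 in D1, 8.57 in D4 and 8.17 in D5, where W12c (near 7305684) had 4.32, 3.45 and 4.06 in the same lists. In D7 the fold of W12a was 6.71, in a single peak of 1942 bp, and W12c had no entry of its own. In the whole embryos of D1 and D4, W12c was the strongest, with a fold of 6.24 and 6.07. W12a was close to it in D4, with 5.94, and was not listed in D1. In the whole embryos of D5 and D7 the strongest was W12a, with 6.43 and 7.87, where W12c had 6.05 and 6.23.

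**Figure D4:**
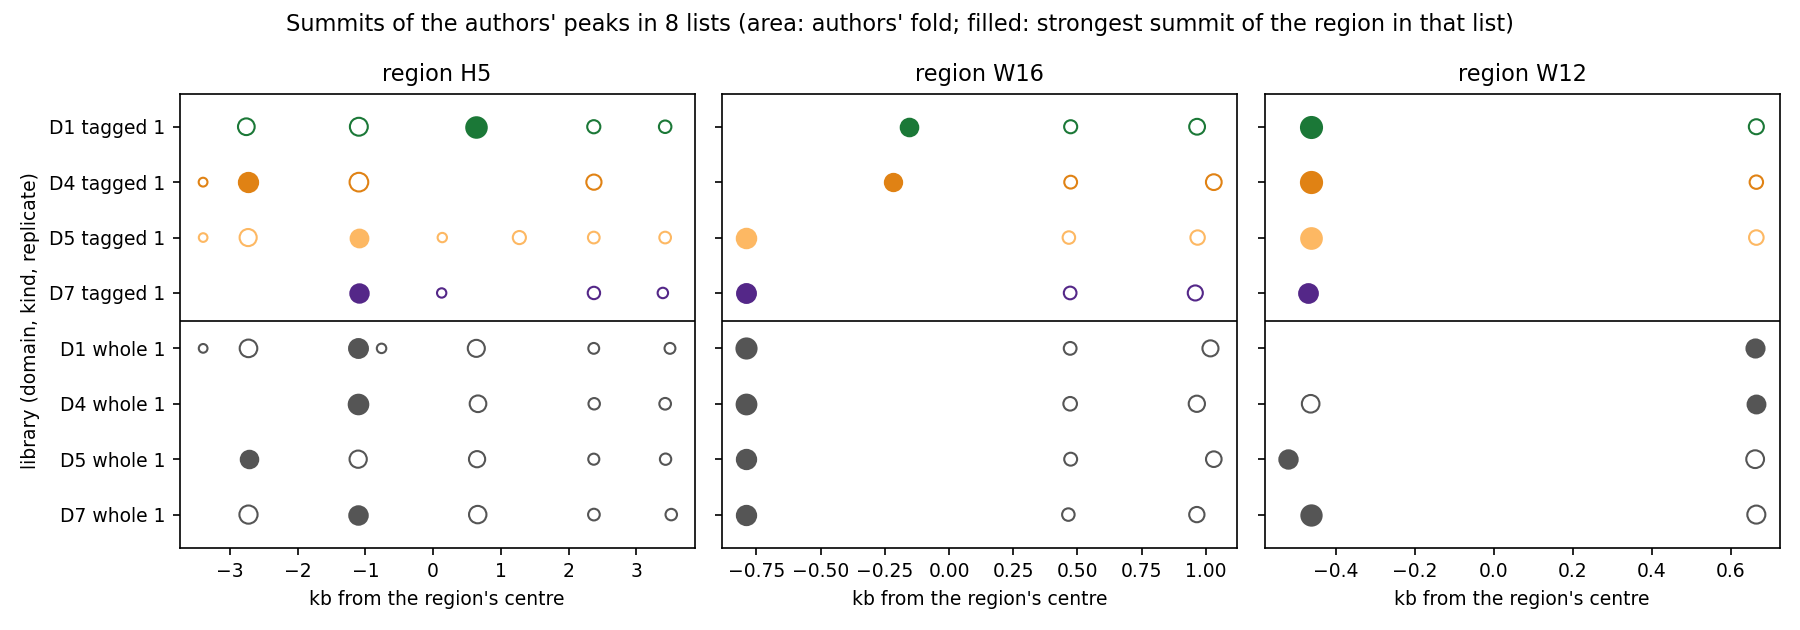
Summits in H5, W16 and W12 in the 8 lists without lettered peaks (rows, tagged domains above whole embryos) by distance in kb from the centre of the region, with the area of a circle showing the authors' fold and the strongest summit of each list filled. In H5 the filled circle of D1 tagged nuclei lies near 0.644 kb, where it is filled in none of the other 7 lists.

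Some regions can be ranked against each other within a list because their listed summit lay at a single position in all 22 libraries. There were 10, W6, W7, W8, W9, W13 and W20 around wg and H1, H8, H10 and H11 around hh. Of these, 6 (W6, W9, W13, W20, H8 and H11) had a single entry without a letter in every list. For the others the libraries with a lettered or second entry were left out, 1 for W7, 6 for W8, 1 for H1 and 2 for H10. Of the 21 pairs within a window, 12 had the same order in all libraries used: W7 was above W6, W9, W13 and W20, W8 was above W9, W13 and W20, H10 was above H1, H8 and H11, and H1 and H8 were above H11.

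W6 was stronger relative to W9 in tagged nuclei than in the whole embryo of the same strain in 8 of 8 strains. The ratio of W6 to W9 was 0.993 and 0.847 in D1, 0.953 and 3.18 in D3, 1.12 and 0.926 in D2, 1.74 and 1.73 in D4, 0.796 and 0.892 in D5, 1.12 and 1.68 for D6, and 0.840 and 1.28 for D7, against 0.559 to 0.853 with a median of 0.701 in whole embryos. The groups overlapped, and 7 of 14 tagged and 0 of 8 whole-embryo libraries ranked W6 above W9.

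The ratio of W6 to W20 was 0.778 to 1.87 in tagged nuclei, with a median of 1.02, and 0.668 to 1.03 in whole embryos, with a median of 0.795. It was higher in tagged nuclei in 8 of 8 strains. The ratio of W6 to W8, in the 16 libraries where W8 could be used, was 0.663 to 1.41 in tagged nuclei and 0.368 to 0.692 in whole embryos, and higher in tagged nuclei in 5 of 5 strains. Of the 21 ratios, 5 were higher in tagged nuclei in all strains used (W6 to W8, W9 and W20, and W7 to W8 and W9) and 1 was lower in all (W8 to W13). These ratios share regions, they were picked out after all 21 had been seen, and no p is given.

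**Figure D5:**
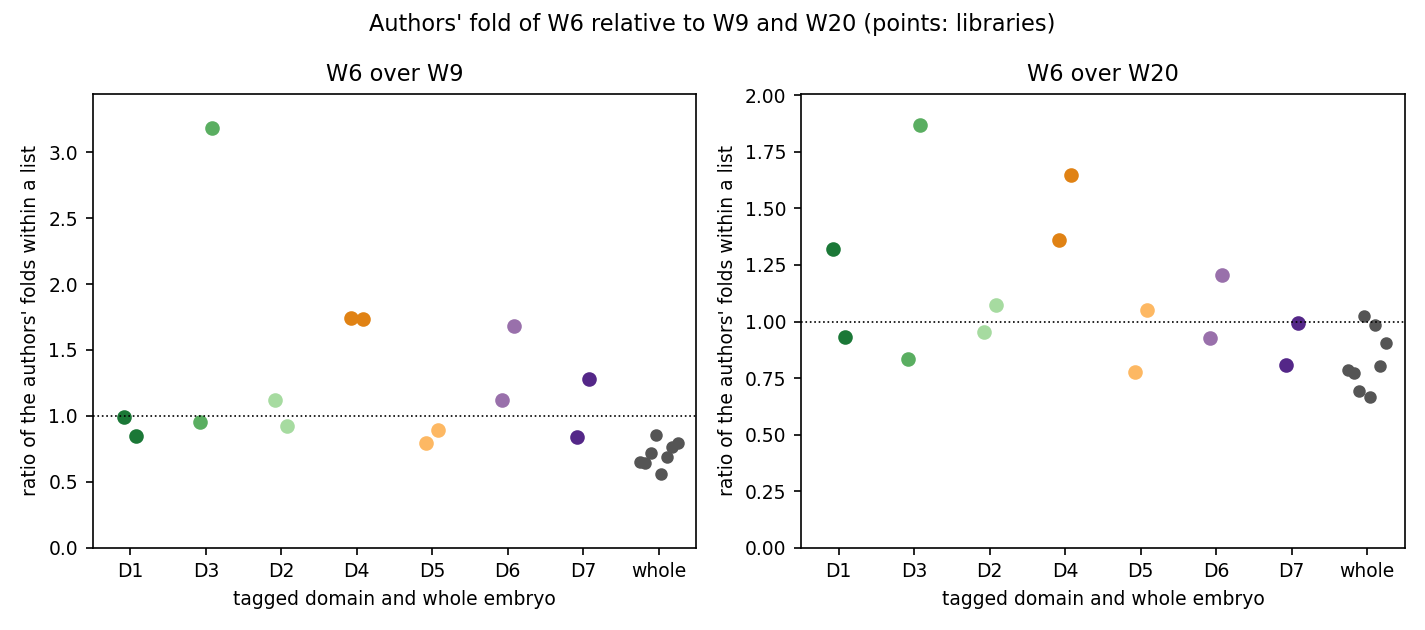
Ratio of the authors' fold of W6 to that of W9 (left) and of W20 (right) within each list, for the tagged domains from anterior to posterior and for whole embryos, with a point for each library and a dotted line where both are equal. All 8 whole-embryo points lie below the line for W9, at 0.559 to 0.853, and 7 of 14 tagged points, both of D4 and both of D6 among them, lie above it.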

How the data were processed

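ATAC-seq peak lists of 14 libraries of tagged nuclei and 8 of whole embryos were used, and 1 genomic DNA sample was not analysed here. Per the submitters' processing notes, Bowtie2 2.2.9, SAMtools 1.3.1, MACS2 2.1.1.2 and build dm3 were used. The lists were written with rtracklayer 1.40.3, per the file headers, and peaks were called against genomic DNA, per the labels. The score deposited for each peak equalled 10 times its -log10 q to within 1 (100% of peaks), and no read counts were used, so no counting interval is given. The shift of reads for Tn5 and other settings are not given in the sources used here.

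Peaks of all lists on X, 2L, 2R, 3L, 3R and 4 were merged with an overlap of 1 bp (Python 3.11.15, numpy 2.4.6, scipy 1.17.1, matplotlib 3.10.9). A two-sided Fisher's exact test was made on each region that at least 2 of the compared libraries had and at least 2 lacked, with Benjamini-Hochberg adjustment over all such regions and a threshold of 0.05. The test was checked on simulated data. Regions found everywhere (the 3 with the highest median fold per window in full), those differing between domains, those with an unadjusted p under 0.05 and those lost or gained were to be named. The windows and lists were chosen with earlier results of these data known. The Wnt and Hedgehog pathway lists, the segment polarity list and the driver loci could not be placed on dm3 and were not tested.

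Tagged and whole-embryo libraries were paired by strain, from the labels. After the mean of each kind was subtracted, pairs of a strain correlated at a mean of 0.185 (0.00149 to 0.352) and other pairs at -0.0263, and 7 of 8 tagged libraries were most correlated with their own whole embryo. Each p-value treats every library as 1 unit, and the libraries on a side came from several domains or constructs. The spread behind it thus mixes domain, transgenic line and library, and both D3 libraries are labelled with the same line. No 2 lists shared more than 0.650% of their peaks exactly.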

Additional observations from a re-analysis of the deposited data

Results flagged for a closer look

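Of 16 groups of 4 to 8 libraries examined for a library apart from the rest, 1 held one. D7 replicate 2 had 14 hh regions among the 4 posterior tagged libraries, and each of the other 3 had 12, so its gap to the nearest was the whole range of the group. Chance flags about 1 in 20 groups of continuous values. With 3 equal counts the gap is the whole range whatever its size, so that rate does not apply here. The 12 regions were not the same in those 3 libraries, and H13 was found in D7 replicate 2 and in none of them.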

How the results depend on the processing

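The number of members called by Fisher's exact test was 0 in all 4 comparisons under every alternative: a stricter threshold (-log10 q of at least 5), an overlap of 50%, lists of equal length by -log10 q or by width, no filter, strata by style, and 1 library left out at a time (0 to 0). The replicate block (strata by replicate number, or pairs of the same strain) also gave 0 called members. Across domains, the deviations of libraries of the same number correlated little on average (mean 0.0438), with a range of -0.0906 to 0.235 over the pairs of domains. With lists of equal length by width, 54 regions of the genome, no member among them, were called in the anterior comparison, against 0 before, and the cause was not tested. Leaving out 1 library gave at most 1 member with an unadjusted exact p under 0.05 in the posterior comparison (W1 without D7 replicate 1 or 2, p = 0.0385; W23 as given above) and 3 in tagged nuclei against whole embryos (W4, W18 and H13, p = 0.0256 to 0.0406). In the exact test, other settings gave such a p for H9 (posterior, p = 0.0050) and H13 (tagged against whole embryo, p = 0.0256) with the stricter threshold, for W19 (tagged against whole embryo, p = 0.0256) with equal length by -log10 q, and for W4 (posterior, p = 0.0110) and W17 (tagged against whole embryo, p = 0.0406) with equal length by width. None passed the adjustment, and the share of all regions with such a p was not taken under these settings. The 5 regions that differed between domains became 9 with the stricter threshold, 8 with lists of equal length by -log10 q and 8 by width. They ranged from 5 to 10 with 1 library left out, where the looser rule for a domain of 1 library lets the number only stay or rise. The 1 region lost or gained became 2 with the stricter threshold and 3 with lists of equal length by -log10 q, and the cause was not tested. For these counts and those of regions that differed between domains, the share of all regions was not taken under the same settings. The changes can therefore not be read as particular to wg and hh. The 19 regions found in all 22 libraries became 16 with the stricter threshold, 16 with lists of equal length by -log10 q and 17 by width. They ranged from 19 to 20 with 1 library left out, where the number can also only stay or rise. Read depth is unknown, so a missing peak is not an absence of accessibility.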
